A study of Homo sapiens with 33 samples.

Results

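The 42 genes described here encode factors of ribosome biogenesis, the process that makes ribosomal RNA in the nucleolus and assembles it with ribosomal proteins. They were taken as a list of gene symbols, and all 42 were found among the 85160 genes of the deposited count table. RNA was measured in NB4, an established cell line from acute promyelocytic leukaemia, a blood cancer in which myeloid cells are held at the promyelocyte stage. The study looked for drugs for differentiation therapy, and its ATRA arm gives a time course of cells driven to mature. The treated cells were given all-trans retinoic acid (ATRA) at 1 µM, a vitamin A derivative, and were collected after 4, 12, 24, 72 and 120 h. The solvent control cells received DMSO and were collected at the same 5 times, and cells with no treatment were collected at 0 h. Fresh medium with the agent was added to the cultures on day 3, per the labels' protocols. Each of the 11 groups had 3 libraries of total RNA, labelled as biological replicates and numbered 2, 4 and 5 in the titles, which gave 33 libraries. The 2 technical runs per library that the series' design mentions were deposited as 1 column per library. All come from 1 cell line, so the p-values measure the spread between cultures of that line.

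RNA polymerase I transcribes the ribosomal RNA precursor, and small nucleolar ribonucleoproteins (snoRNPs) guide its chemical modification while it is made. The precursor is cut and folded inside a large particle, the small-subunit processome, and then inside separate pre-40S and pre-60S particles that leave the nucleus. Growing cells spend much of their transcription on this pathway, and in many cell types it is turned down when cells stop dividing and mature. The transcription factor MYC is known to activate many of its genes.

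All 42 genes passed the filter on low counts, and the least counted of them, RRS1, held 27947 fragments over all libraries. Library totals ran from 18341456 to 33490654 fragments. Levels are given as CPM, which are counts scaled to a common library total after TMM correction, in the order of replicates 2, 4 and 5. Changes are log2 fold changes with their standard error, and adjusted p-values come from edgeR's quasi-likelihood test, adjusted by Benjamini-Hochberg over all 22971 genes tested. A gene is called changed where that p was under 0.05. In bulk RNA, fewer cells of a type and less RNA of a gene per cell cannot be told apart. The myeloid marker MPO stood at 423 ± 93.5 CPM in ATRA cells at 120 h, against 9624 ± 1063 CPM in DMSO cells and 11164 ± 574 CPM in untreated cells (SD, n = 3 each). The granule genes PRTN3, AZU1 and CTSG and the surface marker ANPEP also had lower means in ATRA cells than in DMSO cells at 120 h, whereas CD33 stood at 42.2 ± 1.88 CPM in ATRA cells and 42.7 ± 2.66 CPM in DMSO cells. PTPRC, a marker of all leukocytes, was higher, at 717 ± 19.1 CPM in ATRA cells and 99.3 ± 3.81 CPM in DMSO cells. Of the epithelial and fibroblast markers, EPCAM stood at 3.16 ± 0.763 CPM in ATRA cells and 11.6 ± 0.613 CPM in DMSO cells, COL1A1 averaged 3.25 CPM in ATRA cells and 0.0551 CPM in DMSO cells, and KRT5 and COL3A1 were near 0. The part of these shifts in the results was not tested. The erythroid markers HBB and HBG1 were at 0 in ATRA cells at 120 h and in untreated cells. KIT, a progenitor marker, was at 0 in the same groups, and the lymphocyte markers CD3E and MS4A1 had group means of at most 0.0354 CPM in them. The DMSO library of replicate 5 at 4 h stood apart from replicates 2 and 4 of its group, with 14.2% of its fragments in its 10 largest genes where these had 8.77% and 9.26%. The count and median at 4 h and some single genes are therefore also given without it.

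More than 10% of the exon length overlaps that of a same-strand gene in 8 of the 42 genes, and fragments there were counted for both genes. The 8 are DDX21 (96.9%), RRS1 (68.9%), POLR1B (46.9%), NOP2 (27.3%), BOP1 (24.6%), DDX18 (24.0%), HEATR1 (12.2%) and RRP12 (10.4%). The counts of these 8 genes are uncertain to that extent, DDX21 above all, whose gene model lies almost wholly within exons assigned to KIFBP. RRN3 and NPM1 have near-identical pseudogene copies, and their counts are uncertain as well.

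In untreated cells the per-length levels spanned a wide range. Per kilobase of exon in the deposited gene models, DDX21 had the highest level at 111 CPM per kb, followed by NPM1 at 92.7 and NOLC1 at 85.9 CPM per kb. Near the bottom were LTV1 at 2.64 and UTP15 at 1.97 CPM per kb. The abundant genes were thus those of nucleolar scaffold proteins and a helicase, and the low ones included small-subunit factors, although the merged exon models lengthen some genes more than others.

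The promoter windows of 4 of these genes are shown, because these genes had the largest falls at single times or the mildest early change and because they differ in a short motif. The motif is the palindrome CACGTG, the canonical E-box to which MYC with its partner MAX is known to bind. Each window runs from 250 bases before to 50 bases after a RefSeq gene start on GRCh38.p14, 5′ to 3′ on the gene's strand, and capitals mark CACGTG. POLR1B lies on the plus strand at chr2:112541786-112542085, RRP9 on the minus strand at chr3:51941855-51942154, NPM1 on the plus strand at chr5:171387599-171387898 and FBL on the minus strand at chr19:39846330-39846629. POLR1B and NPM1 each have a further RefSeq window, also without the motif.
POLR1B: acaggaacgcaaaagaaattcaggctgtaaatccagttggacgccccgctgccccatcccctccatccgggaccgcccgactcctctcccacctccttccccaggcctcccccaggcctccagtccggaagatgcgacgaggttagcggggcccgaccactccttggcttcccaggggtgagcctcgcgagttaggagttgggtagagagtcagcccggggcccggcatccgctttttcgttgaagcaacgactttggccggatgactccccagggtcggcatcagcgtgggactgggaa
RRP9: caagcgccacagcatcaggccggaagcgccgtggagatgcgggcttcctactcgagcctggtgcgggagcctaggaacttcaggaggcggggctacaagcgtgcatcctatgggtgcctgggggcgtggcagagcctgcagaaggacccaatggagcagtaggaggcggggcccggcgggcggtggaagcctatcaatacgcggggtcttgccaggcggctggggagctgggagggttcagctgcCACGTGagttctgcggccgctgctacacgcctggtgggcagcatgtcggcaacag
NPM1: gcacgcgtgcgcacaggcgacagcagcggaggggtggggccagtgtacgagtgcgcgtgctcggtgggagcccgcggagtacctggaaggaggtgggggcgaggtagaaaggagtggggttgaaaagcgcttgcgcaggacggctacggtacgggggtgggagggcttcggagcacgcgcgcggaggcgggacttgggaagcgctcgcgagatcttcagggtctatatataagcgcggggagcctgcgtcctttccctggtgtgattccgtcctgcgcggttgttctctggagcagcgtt
FBL: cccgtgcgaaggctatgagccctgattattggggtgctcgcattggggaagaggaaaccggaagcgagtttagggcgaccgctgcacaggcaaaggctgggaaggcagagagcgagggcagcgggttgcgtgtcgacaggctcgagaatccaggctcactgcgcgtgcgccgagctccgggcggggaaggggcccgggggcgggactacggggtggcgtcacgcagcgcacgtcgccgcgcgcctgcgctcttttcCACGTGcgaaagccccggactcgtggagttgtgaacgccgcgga
In RRP9 the motif starts at position -5 and in FBL at position 7, counted with the start site as position 1 and no position 0.

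RefSeq windows were matched for 35 of the 42 genes, and for NOLC1, BOP1, RRP12, DDX18, RRP1B, RRS1 and NOP58 none was used. CACGTG stood in a window of 17 of the 35 genes (48.6%). It stood in 26% of 96 other ribosome biogenesis genes, in 13.8% of 6789 expressed protein-coding genes and in 8.77% of 27305 genes in the RefSeq table. The 17 genes were FBL, DDX21, RRP9, NOP14, UTP20, NAT10, BYSL, LTV1, PNO1, NOP2, PES1, EBNA1BP2, GNL2, GNL3, MRTO4, WDR43 and UTP4. Each of the 17 had a window with the motif within 50 bases of the start site. EBNA1BP2 has 2 RefSeq windows and holds the motif at position 43 in one and at position -237 in the other. Counted by any window of a gene in the same way, a motif within that distance was found in 43.1% of the 936 expressed protein-coding genes that held it. The RNA polymerase I genes POLR1A, POLR1B, RRN3 and UBTF held none in their windows. For comparison, searched on both strands, the ETS-type motif CCGGAAG stood in 34.3% of the 35 genes and 26.3% of the expressed protein-coding genes, and TATAAA in 5.71% and 8.04%. None of the 3 motifs contains another, and a match is a description of the letters only.

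As a share of the library, the 42 genes together were lower in ATRA cells than in DMSO cells at every time. They took 0.788% ± 0.0307 of fragments in ATRA cells and 0.962% ± 0.106 in DMSO cells at 4 h (SD, n = 3 each here and in the next sentences). At 12 h the shares were 0.645% ± 0.0133 in ATRA cells and 0.903% ± 0.0261 in DMSO cells. At 24 h they were 0.753% ± 0.00708 in ATRA cells and 0.905% ± 0.0157 in DMSO cells. The gap was thus narrower at 24 h than at 12 h, and it widened again later. At 72 h the shares were 0.301% ± 0.0235 in ATRA cells and 0.645% ± 0.00797 in DMSO cells. At 120 h they were 0.259% ± 0.0168 in ATRA cells and 0.755% ± 0.00967 in DMSO cells. Untreated cells stood at 0.877% ± 0.0317. The plot of shares by library shows no overlap between ATRA and DMSO libraries at any time, and it shows the DMSO libraries of 72 h below those of every other DMSO time.

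**Figure D1:**
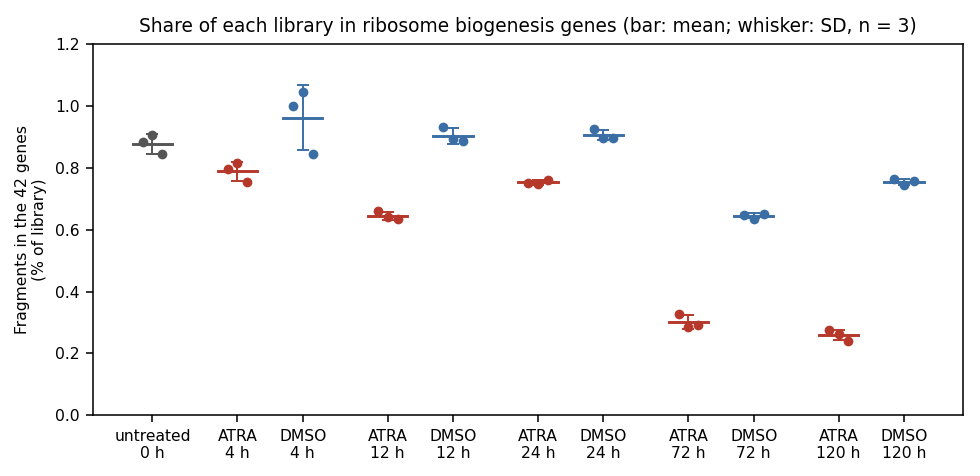
Share of each library's fragments (% of library, linear axis from 0) that fell in the 42 ribosome biogenesis genes, by group. Points are libraries, bars are means and whiskers are SD (n = 3); the ATRA libraries of 120 h average 0.259%, against 0.755% in DMSO libraries of 120 h.

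Called changes under ATRA were nearly all falls. At 4 h, 36 of the 42 genes fell and none rose (24.7% of all genes tested were called, 12.4% as lower), with a median log2 fold change of -0.41 beside 0.00 over all genes. At 12 h all 42 fell (38.7% of genes called, 18.7% as lower and 20% as higher), with a median of -0.51 beside 0.03. At 24 h 28 fell and 1 rose (33.2% of genes called, 15.8% as lower), with a median of -0.21 beside 0.02. At 72 h 40 fell and 1 rose (64.7% called, 32.6% as lower), with a median of -0.91 beside -0.02. At 120 h 40 fell and 1 rose (70.6% called, 35.6% as lower), with a median of -1.33 beside -0.03. At the same times, 8330 protein-coding genes with an average log2 CPM of at least 4 had medians between -0.10 and -0.02. Of these 8330 genes, which are closer to the 42 in level, 20.2% were called lower at 4 h, 35.3% at 12 h, 24.6% at 24 h, 43.1% at 72 h and 46.8% at 120 h. A called change of at least 2-fold downward was reached by 1 of the 42 genes at 4 h (2.38%, against 1.93% of all genes tested), by 15 at 72 h (35.7%, against 12.5%) and by 32 at 120 h (76.2%, against 20.1%).

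The falls were also seen library by library. All 3 ATRA libraries lay below all 3 DMSO libraries for 34 of the 42 genes at 4 h (17% of all genes), 41 at 12 h (22.5%), 36 at 24 h (22.6%), 40 at 72 h (34.7%) and 41 at 120 h (36.5%). Of the 42 genes, 22 were called lower at all 5 times, 18 at 4 times, and 2, RRP12 and LTV1, at 2 times. Without DMSO replicate 5 at 4 h, 41 genes were called at 4 h with a median of -0.46, and without DMSO replicate 4 the count was 32 with a median of -0.37. Calls missed at 4 h, such as those of RRN3 and NPM1, can thus rest on DMSO replicate 5. Among the 34 genes that share under 10% of their exon length, 29, 34, 23, 33 and 33 were called at 4, 12, 24, 72 and 120 h, all lower.

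**Figure D2:**
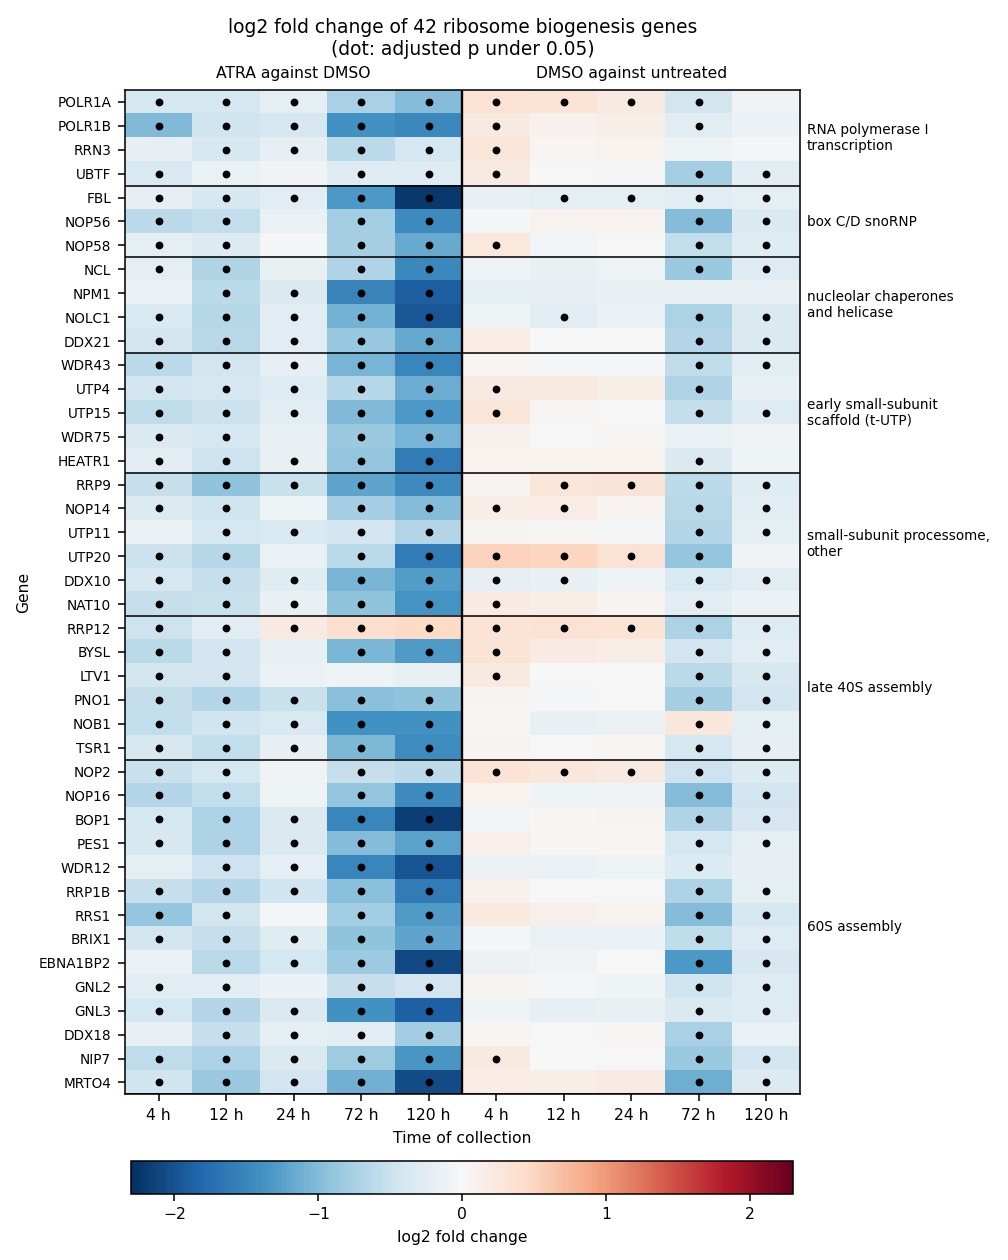
Log2 fold change of each of the 42 genes (rows, by role) for ATRA against DMSO and for DMSO against untreated cells at 5 times (columns), with a dot where the adjusted p was under 0.05. The ATRA columns are blue apart from RRP12 at 24, 72 and 120 h, and the DMSO columns are blue chiefly at 72 and 120 h.

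Of the 4 genes of RNA polymerase I transcription, 3 fell at 4 h, 4 at 12 h, 3 at 24 h, 4 at 72 h and 4 at 120 h. POLR1B, a core subunit of the polymerase (ENSG00000125630, chromosome 2, 112535025 to 112584099, plus strand), had the largest fall of the 42 genes at 4 h. It stood at 60.7, 62.6 and 60.3 CPM in ATRA cells at 4 h, against 124, 129 and 119.6 CPM in DMSO cells. The groups did not overlap, and the log2 fold change was -1.02 ± 0.07 (adjusted p = 1.27e-14). At 12 h it stood at 85.9, 83.7 and 79.3 CPM in ATRA cells, against 115, 119 and 111 CPM in DMSO cells, with a log2 fold change of -0.47 ± 0.07. This smaller gap at 12 h differed from that at 4 h by 0.56 ± 0.10 (adjusted p = 1.04e-04). Its level at 120 h was 38.4, 36.8 and 30.4 CPM in ATRA cells, against 99.7, 102 and 91.7 CPM in DMSO cells, a log2 fold change of -1.48 ± 0.08. POLR1B was therefore low early, less so at 12 and 24 h, and lowest late, on counts of which 46.9% of the exon length is shared with TTL. POLR1A, the largest subunit, had log2 fold changes of -0.41 at 4 h and -0.998 at 120 h.

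RRN3, the factor that makes the polymerase competent to start, was not called at 4 h, with 74.2, 81.1 and 72.6 CPM in ATRA cells, against 87.9, 97.9 and 73.2 CPM in DMSO cells, and a log2 fold change of -0.18 ± 0.07 (adjusted p = 0.059). Without DMSO replicate 5 of 4 h it was called at -0.29 ± 0.07. At 72 h it stood at 45.8, 40.7 and 42.3 CPM in ATRA cells, against 68.2, 62.6 and 67.1 CPM in DMSO cells (-0.62 ± 0.07), and at 120 h at 52.3, 56.3 and 47.7 CPM in ATRA cells, against 68.3, 69.9 and 69.1 CPM in DMSO cells (-0.41 ± 0.07). RRN3 thus kept to a mild change late. UBTF, which binds the ribosomal DNA and keeps it open, changed least of all at 12 h, with 145, 166 and 160.0 CPM in ATRA cells, against 165, 184 and 174 CPM in DMSO cells (-0.15 ± 0.06, adjusted p = 0.0437). At 120 h UBTF stood at 119.7, 123 and 111 CPM in ATRA cells, against 145, 151 and 139 CPM in DMSO cells (-0.30 ± 0.06). At 120 h the estimates of RRN3 and UBTF were thus closer to 0 than those of the subunits POLR1A and POLR1B.

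The box C/D snoRNP places ribose methyl groups on ribosomal RNA. Its methyltransferase gene FBL (ENSG00000105202, chromosome 19, 39834384 to 39846414, minus strand) had the largest fall of the 42 genes at 120 h after one of the smallest at 4 h. At 4 h FBL stood at 59.3, 62.8 and 61.1 CPM in ATRA cells, against 67.1, 69.8 and 72.9 CPM in DMSO cells (-0.20 ± 0.07, adjusted p = 0.0416). At 24 h it stood at 60.4, 55.7 and 56.3 CPM in ATRA cells, against 66.3, 68.1 and 69.2 CPM in DMSO cells (-0.24 ± 0.07). At 72 h it stood at 28.4, 27.1 and 24.7 CPM in ATRA cells, against 67.3, 68.03 and 63.9 CPM in DMSO cells (-1.32 ± 0.08). In each of these comparisons the groups did not overlap. At 120 h it stood at 16.03, 15.6 and 11.5 CPM in ATRA cells, against 69.3, 67.2 and 64.5 CPM in DMSO cells (-2.23 ± 0.08, adjusted p = 3.80e-25). In DMSO cells FBL averaged 69.9 ± 2.89 CPM at 4 h and 67.03 ± 2.40 CPM at 120 h (SD, n = 3 each), and each ATRA library of 120 h lay below all untreated libraries (74.9, 77.8 and 82.7 CPM). The core protein gene NOP56 had another course, with 294, 301 and 309 CPM in ATRA cells at 4 h, against 465, 499 and 412 CPM in DMSO cells (-0.60 ± 0.07). At 24 h NOP56 stood at 442, 447 and 445 CPM in ATRA cells, against 472, 514 and 504 CPM in DMSO cells, and was not called (-0.16 ± 0.07, adjusted p = 0.0723). By 120 h NOP56 was at 147, 140.2 and 118 CPM in ATRA cells, against 375, 375 and 371 CPM in DMSO cells (-1.47 ± 0.07). NOP58, the partner of NOP56 in the particle, had log2 fold changes of -0.21 at 4 h, -0.04 (not called) at 24 h and -1.15 at 120 h.

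Among the abundant nucleolar proteins, NCL, which binds pre-ribosomal RNA, and NPM1, a chaperone, had small estimates at 4 h, lower ones at 12 h, estimates closer to 0 again at 24 h and their lowest at 120 h. NCL stood at 969, 1087 and 988 CPM in ATRA cells at 4 h, against 1198, 1229 and 1081 CPM in DMSO cells (-0.20 ± 0.07, adjusted p = 0.0259), and the groups overlapped. At 12 h it stood at 667, 715 and 688 CPM in ATRA cells, against 1095, 1107 and 1144 CPM in DMSO cells (-0.69 ± 0.07), with no overlap. At 24 h it stood at 1035, 1006 and 1056 CPM in ATRA cells, against 1161, 1177 and 1142 CPM in DMSO cells, and was not called (-0.17 ± 0.07, adjusted p = 0.0582). The return of NCL towards its DMSO level between 12 and 24 h was the largest of the 42 genes (0.53 ± 0.10, adjusted p = 2.60e-04). At 120 h NCL stood at 385, 394 and 315 CPM in ATRA cells, against 1027, 1029.8 and 1000.3 CPM in DMSO cells (-1.48 ± 0.07).

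NPM1 (ENSG00000181163, chromosome 5, 171387110 to 171420062, plus strand) had the mildest change of the 42 genes at 4 h and was not called there. It stood at 1397, 1388 and 1347 CPM in ATRA cells at 4 h, against 1580.5, 1808 and 1122 CPM in DMSO cells (-0.13 ± 0.10, adjusted p = 0.392). The ATRA values lie between the DMSO values, whose replicate 5 is the low one, and without that library the log2 fold change was -0.30 ± 0.08 (adjusted p = 0.0041). At 12 h it stood at 1056, 998 and 939 CPM in ATRA cells, against 1603, 1456 and 1519 CPM in DMSO cells (-0.61 ± 0.10). At 72 h it stood at 565, 537 and 501 CPM in ATRA cells, against 1488, 1581 and 1581 CPM in DMSO cells (-1.54 ± 0.10, adjusted p = 9.01e-17), the largest fall of the 42 genes at that time. By 120 h NPM1 was at 440.1, 434 and 373 CPM in ATRA cells, against 1603, 1510.5 and 1539 CPM in DMSO cells (-1.90 ± 0.10). NPM1 was not called in DMSO cells against untreated cells at any time, and its ATRA libraries of 120 h lay below all untreated ones (1807, 1846 and 1586 CPM). NOLC1, a scaffold for snoRNPs, fell at every time, to 109, 103 and 84.9 CPM in ATRA cells at 120 h, against 397, 385 and 379 CPM in DMSO cells (-1.97 ± 0.07). The helicase gene DDX21 fell at every time too, with -0.41 at 4 h and -1.18 at 120 h, on counts that overlap KIFBP.

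**Figure D3:**
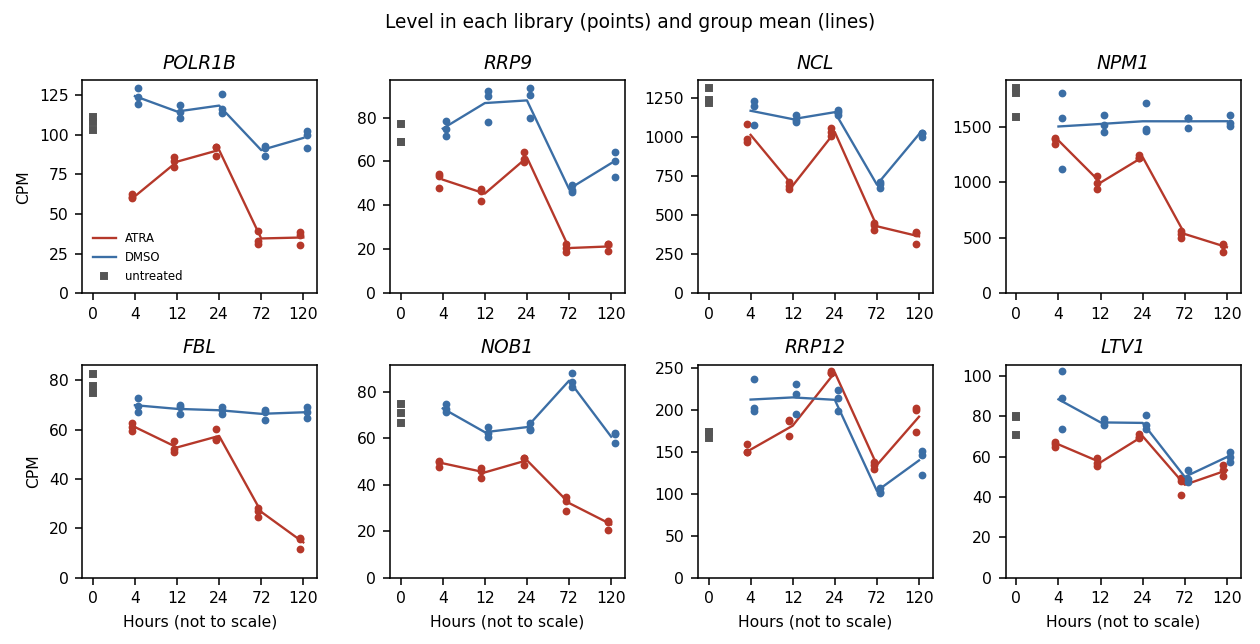
CPM of 8 of the genes in each library (points) by hours of culture (axis not to scale), with lines through the group means of ATRA cells and DMSO cells and squares for untreated cells. The ATRA line lies below the DMSO line at every time for all but RRP12, and LTV1 is the gene whose lines meet most closely at 72 h.

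The early scaffold of the small-subunit processome assembles on the nascent transcript and is known to act in its transcription as well. Its 5 genes here, WDR43, UTP4, UTP15, WDR75 and HEATR1, all fell at 4, 12, 72 and 120 h, and 4 of them at 24 h. WDR43 stood at 158, 159 and 148 CPM in ATRA cells at 4 h, against 236, 256 and 221 CPM in DMSO cells (-0.61 ± 0.06, adjusted p = 5.20e-11). Its level at 120 h was 72.7, 66.4 and 64.5 CPM in ATRA cells, against 191, 194 and 190.0 CPM in DMSO cells (-1.50 ± 0.06). HEATR1 stood at 144, 144 and 135 CPM in ATRA cells at 4 h, against 169, 184 and 155 CPM in DMSO cells (-0.27 ± 0.06). At 120 h HEATR1 stood at 53.2, 49.1 and 46.8 CPM in ATRA cells, against 157, 144 and 152 CPM in DMSO cells (-1.60 ± 0.07), the largest fall of the 5 genes. At both times and in both genes the groups did not overlap. UTP15 was the member with the largest fall at 12 h (-0.50), and WDR75 was the one not called at 24 h (-0.17).

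Of 6 further processome genes, 5 fell at 4 h, 6 at 12 h, 4 at 24 h and all 6 at 72 and 120 h. RRP9, a protein of the U3 snoRNP (ENSG00000114767, chromosome 3, 51926648 to 51943543, minus strand), had the largest fall of the 42 genes at 12 and at 24 h. At 12 h it stood at 42.04, 46.5 and 47.7 CPM in ATRA cells, against 77.8, 89.97 and 92.03 CPM in DMSO cells (-0.93 ± 0.08, adjusted p = 1.85e-12). At 24 h it stood at 64.3, 59.97 and 61.2 CPM in ATRA cells, against 80.01, 90.2 and 93.2 CPM in DMSO cells (-0.51 ± 0.08, adjusted p = 2.01e-06). By 120 h RRP9 was at 22.3, 22.7 and 19.2 CPM in ATRA cells, against 60.1, 64.5 and 53.1 CPM in DMSO cells (-1.47 ± 0.09). The groups did not overlap at these times. UTP20, a large scaffold protein, stood at 97.04, 90.6 and 86.4 CPM in ATRA cells at 12 h, against 155, 139 and 136 CPM in DMSO cells (-0.65 ± 0.08). At 24 h UTP20 stood at 113, 113 and 119.9 CPM in ATRA cells, against 130.5, 124 and 129 CPM in DMSO cells, and was not called (-0.15 ± 0.08). Its level at 120 h was 34.4, 32.8 and 26.9 CPM in ATRA cells, against 95.4, 99.5 and 93.2 CPM in DMSO cells (-1.62 ± 0.09). UTP20 thus came back close to its DMSO level at 24 h and was the lowest of the 6 genes relative to DMSO at 120 h. NAT10, an RNA acetyltransferase, DDX10, a helicase, and NOP14 had log2 fold changes of -1.37, -1.28 and -1.01 at 120 h. UTP11 was the mildest of the 6 at 120 h (-0.67) and was not called at 4 h (-0.13).

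The 6 late 40S factors split at the late times. All 6 fell at 4 and 12 h, while at 72 and 120 h 4 fell, LTV1 was not called and RRP12 rose. NOB1, the endonuclease that trims the end of the small-subunit RNA, stood at 33.02, 34.6 and 28.7 CPM in ATRA cells at 72 h, against 83.9, 88.1 and 81.9 CPM in DMSO cells (-1.40 ± 0.07, adjusted p = 2.05e-20). At 120 h NOB1 stood at 23.9, 24.6 and 20.3 CPM in ATRA cells, against 61.8, 62.3 and 57.7 CPM in DMSO cells (-1.40 ± 0.07). BYSL, a factor of pre-40S particles, stood at 32.3, 34.2 and 31.4 CPM in ATRA cells at 4 h, against 45.7, 49.6 and 54.3 CPM in DMSO cells (-0.61 ± 0.09). BYSL was not called at 24 h (-0.17 ± 0.09), and at 120 h it stood at 14.7, 15.4 and 10.9 CPM in ATRA cells, against 33.3, 35.2 and 32.03 CPM in DMSO cells (-1.30 ± 0.10). PNO1, which works with NOB1, stood at 32.2, 32.6 and 33.04 CPM in ATRA cells at 24 h, against 47.00, 45.9 and 46.04 CPM in DMSO cells (-0.51 ± 0.07). TSR1 had log2 fold changes of -0.36 at 4 h and -1.44 at 120 h.

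LTV1, which leaves the pre-40S particle before its last maturation steps, fell early and was close to DMSO late. At 4 h it stood at 67.2, 66.1 and 64.9 CPM in ATRA cells, against 88.9, 102 and 73.8 CPM in DMSO cells (-0.42 ± 0.08, adjusted p = 5.98e-05). At 72 h it stood at 49.3, 41.1 and 47.8 CPM in ATRA cells, against 49.00, 47.4 and 53.5 CPM in DMSO cells (-0.12 ± 0.08, adjusted p = 0.201), and the groups overlapped. At 120 h it stood at 55.9, 53.6 and 50.3 CPM in ATRA cells, against 59.6, 57.5 and 62.3 CPM in DMSO cells (-0.17 ± 0.08, adjusted p = 0.0615). These late comparisons missed the threshold, which does not show that the levels were equal. In the fits that left out DMSO replicate 2 or DMSO replicate 4 of 120 h, LTV1 was called lower at 120 h with -0.22 ± 0.09 and -0.25 ± 0.09.

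RRP12 encodes a factor that helps pre-ribosomal particles leave the nucleus (ENSG00000052749, chromosome 10, 97356358 to 97426076, minus strand). It was the only one of the 42 genes called higher in ATRA cells at any time. At 4 h it stood at 150.1, 159 and 149.8 CPM in ATRA cells, against 202, 199 and 237 CPM in DMSO cells, a fall of the same kind as that of the other genes (-0.48 ± 0.07, adjusted p = 2.90e-06). At 24 h it stood at 244, 247 and 244 CPM in ATRA cells, against 199.6, 214 and 224 CPM in DMSO cells (0.21 ± 0.07, adjusted p = 0.0277). At 72 h it stood at 135, 129.9 and 139 CPM in ATRA cells, against 107, 103 and 101 CPM in DMSO cells (0.38 ± 0.08, adjusted p = 3.34e-05). At both times all 3 ATRA libraries lay above all 3 DMSO libraries. At 120 h it stood at 200.3, 202 and 174 CPM in ATRA cells, against 146, 151 and 123 CPM in DMSO cells, with no overlap (0.46 ± 0.07, adjusted p = 9.34e-07). Its ATRA effect at 120 h differed from that at 4 h by 0.93 ± 0.10 (adjusted p = 5.42e-10). The call at 24 h was lost in 8 of 14 alternatives, among them DESeq2 (0.17 ± 0.08) and the fit without DMSO replicate 2 of 24 h (0.15 ± 0.08), while the call at 120 h held in all 14, with values from 0.37 to 0.55. At 72 h the direction depended on the DMSO libraries of that time, in which RRP12 was itself low. Set against the mean of DMSO cells at 24 and 120 h, RRP12 in ATRA cells at 72 h had a log2 fold change of -0.36 ± 0.07 (adjusted p = 6.82e-06).

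Of the 14 genes of 60S assembly, 11 fell at 4 h, 10 at 24 h and all 14 at 12, 72 and 120 h. BOP1, PES1 and WDR12 form a complex needed to process the large-subunit RNA. BOP1 stood at 26.8, 23.1 and 22.1 CPM in ATRA cells at 72 h, against 70.6, 68.4 and 65.2 CPM in DMSO cells (-1.51 ± 0.11). At 120 h BOP1 stood at 19.3, 20.3 and 16.4 CPM in ATRA cells, against 84.4, 93.2 and 73.1 CPM in DMSO cells (-2.16 ± 0.11, adjusted p = 1.79e-20). PES1 stood at 74.1, 73.1 and 57.95 CPM in ATRA cells at 120 h, against 163, 169.5 and 148 CPM in DMSO cells (-1.23 ± 0.07). In none of these comparisons did the groups overlap. WDR12 was not called at 4 h, with 65.6, 72.98 and 64.1 CPM in ATRA cells, against 81.8, 84.9 and 66.5 CPM in DMSO cells (-0.20 ± 0.08, adjusted p = 0.0768). At 72 h WDR12 stood at 27.7, 23.2 and 21.5 CPM in ATRA cells, against 69.3, 66.8 and 67.4 CPM in DMSO cells (-1.49 ± 0.09). Its level at 120 h was 19.9, 20.7 and 15.96 CPM in ATRA cells, against 75.5, 78.6 and 69.5 CPM in DMSO cells (-1.98 ± 0.09). The estimates for PES1, the partner with the mildest late fall, were -0.37 at 4 h and -1.23 at 120 h, and those for BOP1 were -0.40 and -2.16.

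NOP16 and RRS1 were among the 60S genes that changed most at 4 h. NOP16 stood at 59.6, 61.5 and 58.6 CPM in ATRA cells at 4 h, against 94.8, 103 and 89.8 CPM in DMSO cells (-0.68 ± 0.06, adjusted p = 4.87e-11). RRS1, which helps bring the 5S particle into the large subunit, stood at 22.5, 26.4 and 27.8 CPM in ATRA cells at 4 h, against 45.01, 50.1 and 46.5 CPM in DMSO cells (-0.89 ± 0.10, adjusted p = 1.92e-09). Both genes were near their DMSO levels at 24 h and not called there, with -0.12 for NOP16 and -0.03 for RRS1. At 120 h NOP16 stood at 24.7, 25.1 and 22.9 CPM in ATRA cells, against 69.8, 69.7 and 62.1 CPM in DMSO cells (-1.47 ± 0.07). EBNA1BP2 had a small estimate at 4 h and a large fall at 120 h. It was not called at 4 h, with 95.8, 94.2 and 98.3 CPM in ATRA cells, against 107, 119 and 95.4 CPM in DMSO cells (-0.16 ± 0.08, adjusted p = 0.155). The low DMSO value is that of replicate 5. By 120 h EBNA1BP2 was at 26.1, 22.4 and 17.1 CPM in ATRA cells, against 96.9, 90.1 and 86.9 CPM in DMSO cells (-2.07 ± 0.09).

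MRTO4, a relative of the ribosomal stalk protein P0, stood at 64.8, 77.1 and 71.9 CPM in ATRA cells at 12 h, against 122, 130.0 and 133 CPM in DMSO cells (-0.85 ± 0.08). The GTPase gene GNL3 (nucleostemin) stood at 53.8, 52.9 and 47.1 CPM in ATRA cells at 120 h, against 192, 188 and 187 CPM in DMSO cells (-1.88 ± 0.07). Its relative GNL2 stood at 72.3, 68.5 and 59.2 CPM in ATRA cells at 120 h, against 95.05, 87.2 and 89.8 CPM in DMSO cells (-0.44 ± 0.06), the smallest late fall of the 14 genes. NOP2, a methyltransferase of the large-subunit RNA, was likewise mild late, with 70.7, 69.1 and 54.02 CPM in ATRA cells at 120 h, against 98.02, 102 and 93.3 CPM in DMSO cells (-0.60 ± 0.07). The other 60S genes at 120 h were RRP1B at -1.61, NIP7 at -1.33, BRIX1 at -1.21 and DDX18 at -0.80. By role, the median log2 fold changes at 120 h ran from -0.70 for RNA polymerase I transcription to -1.69 for the nucleolar chaperones and helicase, while at 24 h all 7 roles lay between -0.30 and -0.16.

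**Figure D4:**
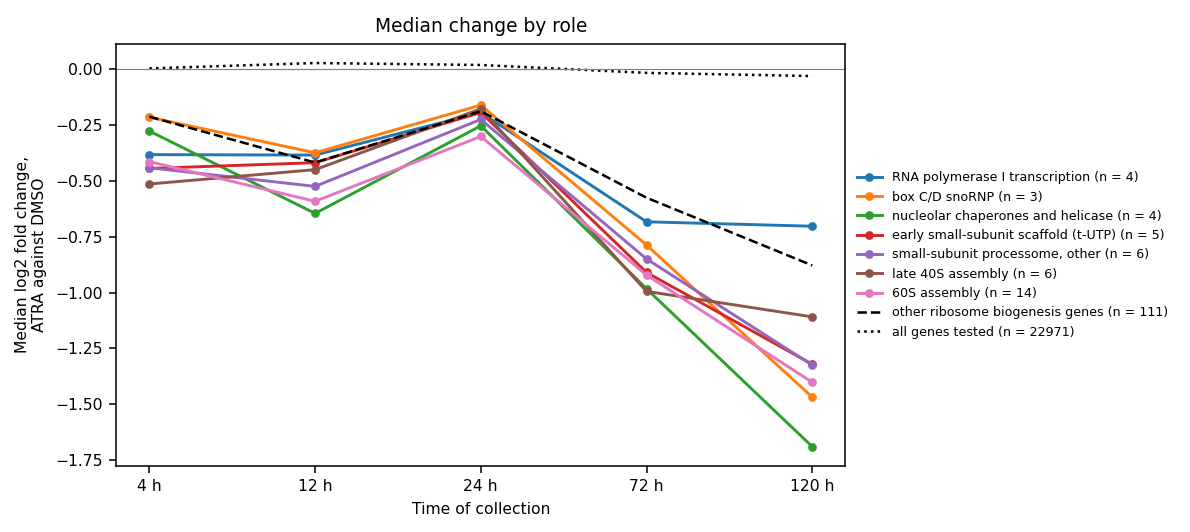
Median log2 fold change of ATRA against DMSO cells (y axis) at each time (x axis) for the 7 roles, for 111 other ribosome biogenesis genes and for all 22971 genes tested. Each role line bends up at 24 h and down after it, and the dotted line of all genes stays between -0.03 and 0.03.

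The ATRA effect moved between times, and this was tested as the change of the effect. Genes that fell further or came back did so relative to DMSO cells of the same time. From 4 to 12 h, 9 genes fell further and 2, POLR1B and RRS1, came back (14% of all genes tested were called, and 23.3% of the 8330 expressed protein-coding genes). These 11 genes are 26.2% of the 42, a share close to that of the expressed genes. Without DMSO replicate 4 of 4 h the count was 17, of which 15 fell further. The median change over the 42 genes was -0.13, and -0.08 without DMSO replicate 5 of 4 h. NCL (-0.49 ± 0.10) and NPM1 (-0.49 ± 0.14) were the largest of the 9. The value of NPM1 rests in part on DMSO replicate 5, without which its estimate at 4 h was -0.30 in place of -0.13. POLR1B and RRS1 are among the genes with much shared exon length. Of the 34 genes that share under 10% of theirs, 8 fell further over this step and none came back. From 12 to 24 h, 18 of the 42 genes came back towards DMSO and none fell further (6.9% of genes called, 2.5% as higher), with a median of 0.29 beside -0.01 over all genes. The count was 9, all upward, without replicate 2 at 24, 72 and 120 h. UTP20 (0.50 ± 0.11), RRP12 (0.45 ± 0.10) and NOP16 (0.44 ± 0.09) were among the 18, after NCL. From 24 to 72 h, 38 genes fell further and none came back (45.9% called), with a median of -0.67 beside -0.04. WDR12 had the largest change of the effect over that step (-1.28 ± 0.12). From 72 to 120 h, the effect fell further for 24 genes and came back for none (39.3% called), led by EBNA1BP2 (-1.22 ± 0.12). The median log2 level of the 42 genes against untreated cells averaged -1.51 in ATRA cells at 72 h and -1.59 at 120 h. In DMSO cells it averaged -0.59 at 72 h and -0.26 at 120 h. The wider gap at 120 h thus went mostly with higher levels in DMSO cells. These 24 genes are 57.1% of the 42, where 59% of the expressed protein-coding genes were called over that step, 33.6% as lower. Between 4 and 120 h the effect was lower for 36 genes and higher for RRP12 alone (56.2% called), with FBL at -2.03 ± 0.11. Adjacent steps share the libraries of the time between them, so their values are not independent of each other.

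In these estimates the size of the early fall did not go with the size of the late one. The estimates at 4 h include DMSO replicate 5, without which NPM1 was at -0.30 in place of -0.13. The relation was not computed without that library. Across the 42 genes the log2 fold changes at 4 h and 120 h had a Pearson r of 0.0101 and a Spearman rho of 0.0289, given as a description over genes that share libraries at each time. Those at 72 h and 120 h had r = 0.839, and those at 12 h and 120 h had r = 0.601. POLR1B and RRS1 lead at 4 h, while FBL, BOP1, EBNA1BP2 and MRTO4 lead at 120 h. Of these, POLR1B, RRS1 and BOP1 are among the 8 genes with more than 10% of shared exon length.

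**Figure D5:**
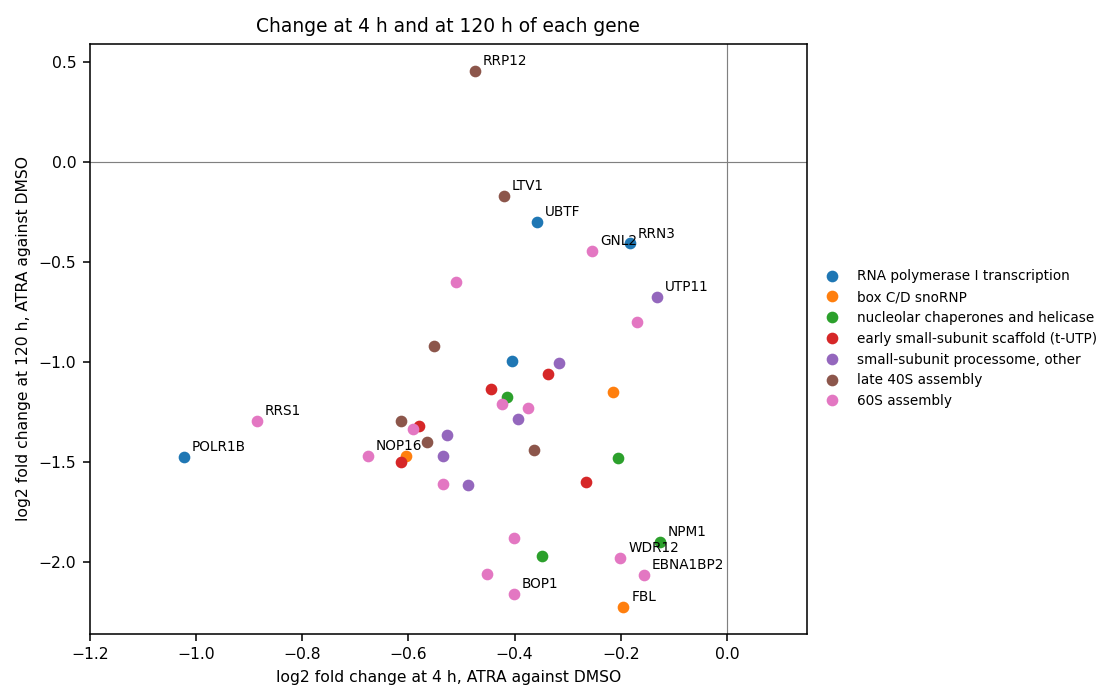
Log2 fold change of ATRA against DMSO cells at 4 h (x axis) and at 120 h (y axis) for each of the 42 genes, coloured by role. The points form no line (r = 0.0101), and RRP12 is the single point above 0 on the y axis.

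DMSO cells themselves changed against untreated cells, whose 3 libraries all these comparisons share. At 4 h 15 genes rose and 1, DDX10, fell (31.4% of all genes tested were called), at 12 h 6 rose and 3 fell (22.7%), and at 24 h 5 rose and 1, FBL, fell (19.1%, of which 9.87% as higher and 9.24% as lower). The called genes are 38.1%, 21.4% and 14.3% of the 42 at 4, 12 and 24 h, against 44.3%, 29.4% and 23.4% of the expressed protein-coding genes. The count at 4 h was 10 without untreated replicate 5 or without DMSO replicate 2, that at 12 h was 5 without untreated replicate 4 or without DMSO replicate 5, and that at 24 h was 3 without untreated replicate 4 or DMSO replicate 4 and 2 without DMSO replicate 5. UTP20 rose most, to 149, 159.8 and 129 CPM in DMSO cells at 4 h, against 95.5, 107 and 101 CPM in untreated cells (0.53 ± 0.08, adjusted p = 2.00e-06). RRP12 (0.31), NOP2 (0.31) and POLR1A (0.32) rose at 4 h as well. At 72 h 38 genes fell and NOB1 rose (51.6% called), with a median of -0.59 beside 0.07 over all genes and -0.16 over the protein-coding genes of at least 4 log2 CPM. At 120 h 31 fell and none rose (21.9% called, 9.58% as lower), with a median of -0.26 beside 0.02. The DMSO fall was thus deeper at 72 h than at 120 h.

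At 72 h EBNA1BP2 stood at 44.3, 47.8 and 50.1 CPM in DMSO cells, against 115, 119 and 120.0 CPM in untreated cells (-1.32 ± 0.08, adjusted p = 2.23e-16). MRTO4 stood at 54.9, 54.7 and 51.5 CPM in DMSO cells at 72 h, against 113, 115 and 123 CPM in untreated cells (-1.13 ± 0.08). NOP56 stood at 229.8, 235 and 235 CPM in DMSO cells at 72 h, against 454, 462 and 488 CPM in untreated cells (-1.01 ± 0.07). In these 3 genes no DMSO library of 72 h overlapped the untreated ones. At 120 h EBNA1BP2 was at 96.9, 90.1 and 86.9 CPM and NOP56 at 375, 375 and 371 CPM in DMSO cells. NOB1 went the other way at 72 h, with 83.9, 88.1 and 81.9 CPM in DMSO cells, against 66.6, 74.6 and 70.9 CPM in untreated cells (0.26 ± 0.07). NPM1 (-0.17), RRN3 (-0.11) and WDR75 (-0.15) were not called at 72 h. The column names place all libraries of 0, 4 and 12 h in sequencing lane 4, and those of 24, 72 and 120 h in lanes 2 and 3, so for DMSO at the 3 later times against untreated cells, time and lane cannot be told apart. ATRA and DMSO libraries of a time are spread over lanes alike. Within lane 2 and lane 3 the median differences of ATRA minus DMSO were -0.24 and -0.22 at 24 h, -0.81 and -0.96 at 72 h, and -1.30 and -1.37 at 120 h.

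Because DMSO cells were low at 72 h, the ATRA effect at that time depends on them, and the comparisons of DMSO with untreated cells and of ATRA with DMSO cells share these libraries. Set against the mean of DMSO cells at 24 and 120 h, a comparison chosen after the fall in DMSO cells had been seen, all 42 genes were called lower in ATRA cells at 72 h, with a median of -1.35 in place of -0.91.

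The 111 other ribosome biogenesis genes were also mostly lower in ATRA cells, with medians closer to 0 than those of the 42 genes. They comprise other RNA polymerase I factors (11), H/ACA snoRNP and snoRNP assembly genes (10), subunits of RNase MRP and P (10), and other 40S (41) and 60S (39) assembly factors. Of the 111, 60 fell and 2 rose at 4 h, 94 fell and none rose at 12 h, 53 fell and 2 rose at 24 h, 87 fell and 12 rose at 72 h, and 99 fell and 7 rose at 120 h. The called genes were 55.9%, 84.7%, 49.5%, 89.2% and 95.5% of the 111. Of all genes tested, 24.7%, 38.7%, 33.2%, 64.7% and 70.6% were called. Of the expressed protein-coding genes, 34.8%, 55.3%, 46.5%, 79.5% and 86% were called, with 20.2%, 35.3%, 24.6%, 43.1% and 46.8% as lower. The medians of the 111 were -0.21, -0.42, -0.19, -0.58 and -0.88. The polymerase I subunit gene POLR1G fell at both ends, with log2 fold changes of -1.51 at 4 h and -2.25 at 120 h, and POLR1E with -0.51 and -2.43. In the 60S list URB2 had -1.06 at 4 h and PA2G4 -1.91 at 120 h. The pseudouridine synthase gene DKC1 of the H/ACA snoRNP had -0.32 at 4 h and -1.49 at 120 h. The RNase list was the mildest late, with 7 falls and 2 rises among its 10 genes at 120 h and a median of -0.44, and RPP40 in it had -2.12. Its share called was 90%, close to the 86% of the expressed protein-coding genes.

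Each of the 42 genes was set against the median of the other 41 over the 11 group means. RRP12 had the lowest Pearson r at 0.347, followed by LTV1 at 0.835, UBTF at 0.839 and NOB1 at 0.839, and the other 38 genes had r of 0.897 or more. The profiles nearest the rest were those of RRP1B and UTP15, both at 0.994, and BOP1 at 0.993.

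MYC was looked at after its values had been seen, since it is known to activate this pathway. It stood at 125 ± 3.06 CPM in ATRA cells and 420.4 ± 42.1 CPM in DMSO cells at 4 h (-1.75 ± 0.08), and at 324 ± 19.6 CPM in ATRA cells and 421 ± 32.5 CPM in DMSO cells at 12 h (-0.38 ± 0.08; SD, n = 3 each). At 24 h it stood at 336 ± 13.8 CPM in ATRA cells and 453 ± 17.4 CPM in DMSO cells (-0.43 ± 0.08). At 72 h it stood at 154 ± 14.2 CPM in ATRA cells and 707 ± 15.6 CPM in DMSO cells (-2.20 ± 0.08), and at 120 h at 58.6 ± 7.39 CPM in ATRA cells and 497 ± 38.97 CPM in DMSO cells (-3.09 ± 0.09). MYC and the median of the 42 genes were thus lower in ATRA cells at each time, but their courses differed. MYC came back between 4 and 12 h (1.37 ± 0.11), a step over which the median change of the effect was -0.13 for the 42 genes, -0.08 without DMSO replicate 5 of 4 h and -0.22 without DMSO replicate 4 of 4 h. Between 12 and 24 h the effect on MYC changed by -0.05 ± 0.11 (adjusted p = 0.867), while the median change for the 42 genes was 0.29. In DMSO cells at 72 h MYC was called higher than in untreated cells (0.19 ± 0.08, adjusted p = 0.0451) while 38 of the 42 genes were lower. The 17 genes with CACGTG in their window and the 18 without it had similar medians, at -0.44 and -0.38 at 4 h, -0.51 and -0.49 at 12 h, -0.24 and -0.21 at 24 h, -0.93 and -0.91 at 72 h, and -1.30 and -1.37 at 120 h. The part of MYC in these changes was not tested.

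Small nucleolar RNA genes lie inside the models of 6 of the 42 genes (14.3%), against 1.89% of 12706 protein-coding genes with over 330 counts. They are GNL3 with 6, NOP56 with 5, NOP58 with 4, NCL and WDR43 with 3 each, and TSR1 with 2, which makes 23 small RNA genes in all. Fragments of such small RNAs were counted for the host as well where they overlap its exons. Exon length shared with any same-strand gene, small RNA genes included, was 8.39% in NOP56 and 3.15% in GNL3. Several of the 42 genes are also neighbours, and UTP4, NIP7 and NOB1 lie between 69131291 and 69754940 on chromosome 16. Their log2 fold changes at 120 h were -1.14, -1.33 and -1.40.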

How the data were processed

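Total RNA of 33 cultures was made into stranded libraries and sequenced as 150 bp paired ends, per the labels' protocols. The deposited table holds raw counts of fragments for each gene, obtained by the authors with featureCounts 1.5.1 (strand-specific, paired), per the file headers. A fragment over several genes was counted for every one, as the file headers show, so genes with shared exons share counts. Other tools named in the submitters' processing notes are Trimmomatic 0.36, STAR 2.5.2b and Subread 1.5.1, with the build GRCh38. The exon length of each gene was deposited by the authors beside the counts and served only for levels per kilobase. Groups and replicate numbers were read from the sample titles, and sequencing lanes from the column names.

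The tests used edgeR 4.0.16 (R 4.3.3) on the 22971 genes kept by filterByExpr, with TMM scaling (factors 0.827 to 1.108). A mean for every group was fitted over all 33 libraries in a single quasi-likelihood model (biological coefficient of variation 0.0769). Benjamini-Hochberg adjustment ran within each of the 15 comparisons, with a threshold of 0.05. The tests were checked on simulated counts. Promoter windows came from RefSeq. All 42 genes could be named, and values per library are given for a core set and for the largest and mildest changes of each time. Of the other pathway genes, those of smallest p per list were named. The genes and lists were chosen with earlier results of these data known. Alternatives were other scaling (RLE), no filter, DESeq2 1.42.0, a lane term, lane 3 alone, a replicate block, a table without mitochondrial and small RNA genes, only the groups compared, and each library left out.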

Additional observations from a re-analysis of the deposited data

Results flagged for a closer look

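The effect of ATRA relative to DMSO on the 42 genes was not the same at the times compared, by edgeR's test of the change of the effect. It differed for 11 genes between 12 and 4 h (26.2%, against 23.3% of the 8330 expressed protein-coding genes). It differed for 18 between 24 and 12 h (42.9%, against 10.6%) and for 38 between 72 and 24 h (90.5%, against 66%). Between 120 and 72 h it differed for 24 (57.1%, against 59%), and between 120 and 4 h for 37 (88.1%, against 77.3%). The shares for 12 against 4 h and for 120 against 72 h were thus close to those of the expressed genes. For all 24 genes the effect relative to DMSO was lower at 120 h than at 72 h, where this was called for 33.6% of the expressed genes. RRP12 stood out by its direction, since its effect was higher at 120 h than at 4 h by 0.93 on the log2 scale.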

How the results depend on the processing

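Counts of called genes and medians for ATRA against DMSO kept their direction under every alternative run. The median at 24 h (-0.21) was -0.25 with RLE size factors, -0.25 with DESeq2 and -0.25 without replicate 2 at 24, 72 and 120 h. It ran from -0.24 to -0.21 with 1 library left out. With the mean of DMSO at 24 and 120 h in place of DMSO at 72 h, a comparison added after the data had been seen, the median at 72 h was -1.35 and RRP12 turned to -0.36. For DMSO against untreated cells, the count at 4 h (16) was 9 with only the groups compared and 10 to 14 with 1 library left out (10 without untreated replicate 5 or DMSO replicate 2). At 12 h the count (9) was 14 with the replicate block, 14 with only those groups, 14 with DESeq2 and 5 to 8 with 1 library left out (5 without untreated replicate 4 or DMSO replicate 5). At 24 h the count (6) was 3 with no filter on low counts. It was 2 to 5 with 1 library left out (2 without DMSO replicate 5, 3 without untreated or DMSO replicate 4). The median of DMSO at 24 h against untreated cells was 0.054 with a term for lane 3. That term takes lanes 2 and 4 as alike, so it does not separate time from lane. The count for the change from 4 to 12 h (11) ran from 9 to 17, the last without DMSO replicate 4 of 4 h. That from 12 to 24 h (18) was 9 without replicate 2 at 24, 72 and 120 h and 28 with only the groups compared. The cause of these shifts was not tested. Same-numbered ATRA and DMSO libraries had correlated deviations over 0.1 in 4 of 15 pairs, 2 at 12 h and 2 at 120 h (range -0.02 to 0.20), and at those times each library correlated best with its own number. Since this did not hold for every pair, the numbers were not taken to pair the libraries. The replicate block left 411 of 420 gene results on the same side of the threshold and brought 9 past it. The least counted gene held 27947 fragments, so depth limits these genes little, while shared exons limit the counts of 8.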
